A study of Homo sapiens with 3 samples.

Results

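The 10 genes described here encode the epidermal growth factor receptor family in MDA-MB-231 cells with its ligands and 2 regulators. They were chosen by name, with earlier results of these data known, from the 19049 usable gene symbols of the deposited table. All 10 had a row. They comprise the receptor genes EGFR, ERBB2 and ERBB3, the ligand genes HBEGF, NRG1, TGFA, AREG and EREG, the protease gene ADAM17 and the inhibitor gene ERRFI1. Receptors of this family are tyrosine kinases that pair when a ligand binds and then drive the RAS-ERK and PI3K-AKT pathways. Ligands are made as membrane-anchored precursors, and ADAM17 cuts several of them free. ERRFI1, also called MIG6, is induced by receptor signalling and blocks the receptors' kinase domains in return. Basal-like breast cancers often express EGFR highly, and the ligands act on the cells that make them and on their neighbours.

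MDA-MB-231 is an established cell line from a human breast cancer, basal-like and triple-negative. All 3 groups carried a short hairpin RNA against KAP1, the corepressor encoded by TRIM28, and were grown in DMEM with fetal bovine serum. The first group re-expressed S473D KAP1, in which an aspartate replaces a serine and imitates its phosphorylated form. The second re-expressed S473A KAP1, in which alanine at that place cannot be phosphorylated, and the third re-expressed wild-type KAP1 (wt). Each group is 1 library of total RNA, and whether the lines were clones or pools is not given in the sources used here. A single library per group gives no measure of replicate error, and every difference below compares a pair of libraries without a test.

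Levels are in RPKM, read numbers divided by gene model length and library depth, so that different genes can be compared per length. Differences were taken as log2(RPKM + 1), a scale that shrinks the differences of low genes, and a gene was counted as apart at 1.5-fold or more (0.585 in log2). Ratios of RPKM carry exact 95% intervals that cover counting error only, from read numbers estimated at 23900000 for S473D, 29300000 for S473A and 25700000 for wt. Counts over all genes refer to the 11571 genes that averaged 1 RPKM or more across libraries, and 7 of the 10 family genes were among them. ERBB3, AREG and EREG were below that level. TRIM28 stood at 25.6 RPKM in S473D, 32.3 in S473A and 28.7 in wt, with depleted and re-expressed transcript not told apart. The 5 markers fixed for this mesenchymal line, VIM, CD44, CAV1, MSN and LGALS1, were all above 1 RPKM and summed to 1610 RPKM in S473D, 1510 in S473A and 1500 in wt. Against wt, LGALS1 was higher in the S473D library (574 against 318 RPKM), while VIM (673 against 738), CD44 (119 against 156) and MSN (129 against 189) were lower. Of 6 luminal markers, GATA3 and FOXA1 were between 1.41 and 1.96 RPKM, while ESR1, PGR, CDH1 and EPCAM were below 1 RPKM in every library, and the 6 summed to between 3.68 and 4.17 RPKM. Of the leukocyte, endothelial and fibroblast markers with a row, 8 of 9 were below 1 RPKM in every library, and the fibroblast collagen gene COL1A1 lay between 1.63 and 1.66 RPKM.

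HBEGF, the gene for heparin-binding EGF-like growth factor, was 1.62-fold lower in S473D than in wt, and ERRFI1 was 1.59-fold lower. These were the 2 genes of the 7 that lay at least 1.5-fold below wt in S473D, and 3.23% of all genes did so. Once the differences were centred on the median of all genes both were just short of that size, which 1.11% of all genes then reached below wt, and both were short of it with a trimmed mean of log ratios as the scaling. EGFR, ERBB2, TGFA and ADAM17 were also below wt in S473D, by less, and NRG1 was above it. In bulk RNA, fewer cells with a transcript and less of it per cell cannot be told apart. In S473A all 7 genes were within 1.5-fold of wt, and 0.242% of all genes were not.

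**Figure D1:**
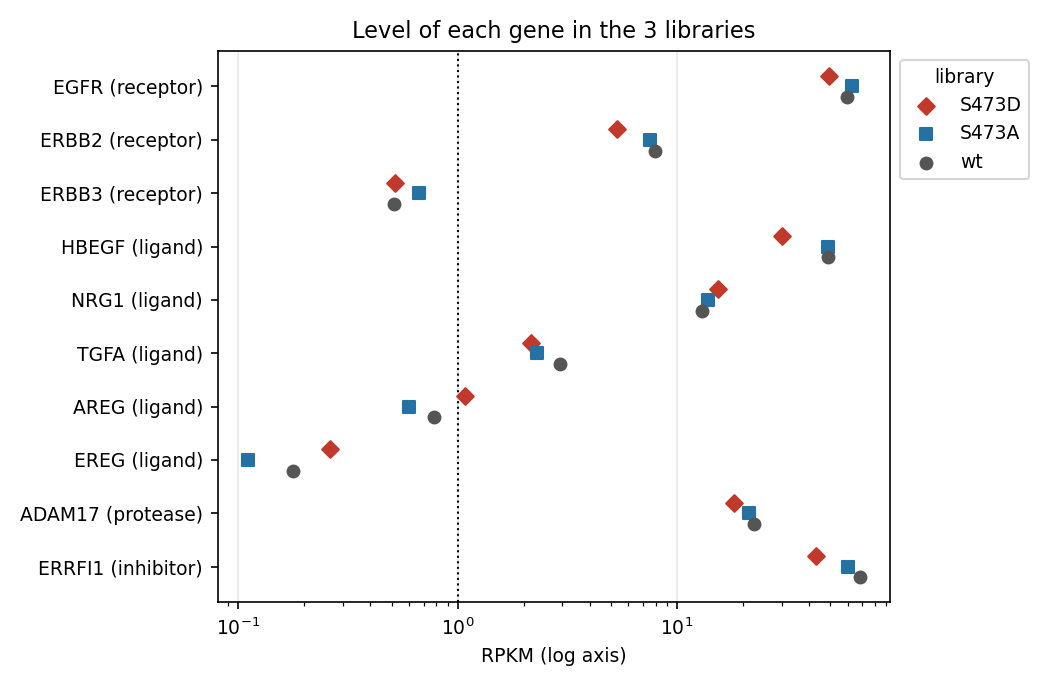
RPKM of each of the 10 genes (log axis) in the S473D, S473A and wt libraries, 1 point per library, with a dotted line at 1 RPKM. ERRFI1, EGFR and HBEGF have the highest levels in every library, and EREG has the lowest at 0.111 to 0.262 RPKM.

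EGFR was by far the most abundant receptor transcript. It stood at 49.5 RPKM in S473D, 62.6 in S473A and 59.6 in wt, and ranked 1016th among the 11571 genes in wt. EGFR was lowest in S473D, at 1.20-fold below wt (interval 1.18 to 1.23), and highest in S473A, where its ratio to wt was 1.05 (interval 1.03 to 1.07). The log2 difference of -0.26 between S473D and wt was -0.02 after smooth trends with length and GC content had been taken out. That step keeps the median of all genes, at -0.10. ERBB2, which has no known ligand of its own and serves as the favoured partner of the other receptors, stood at 5.34 RPKM in S473D, 7.50 in S473A and 7.94 in wt. It was 1.49-fold lower in S473D than in wt (interval 1.34 to 1.65), a difference of -0.50 on the log2(RPKM + 1) scale that is under the size used here and was -0.22 with those trends removed. Its ratio of 0.945 between S473A and wt had a counting interval from 0.866 to 1.03. ERBB3, a receptor with a weak kinase that binds neuregulins, stood at 0.520 RPKM in S473D, 0.665 in S473A and 0.513 in wt. Its estimated 73, 115 and 78 reads in that order gave counting intervals that include 1 in all 3 comparisons. ERBB4, the remaining receptor of the family, did not exceed 0.0105 RPKM in any library.

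EGFR held most of the receptor RPKM in every library, and the share of ERBB2 was lowest in S473D. EGFR made up 89.4% of the summed RPKM of the 4 receptor genes in S473D, 88.5% in S473A and 87.6% in wt. ERBB2 made up 9.64% in S473D, 10.6% in S473A and 11.7% in wt. The ratio of ERBB2 to EGFR was 0.108 in S473D (interval 0.0993 to 0.117) and 0.133 in wt (interval 0.125 to 0.142). In S473A that ratio was 0.12 (interval 0.113 to 0.128). The summed level of the 4 receptor genes was 55.3 RPKM in S473D, 70.7 in S473A and 68 in wt. These shares, ratios and sums were taken without removing the length and GC trends. With them removed, EGFR and ERBB2 differed from wt by -0.02 and -0.22 in S473D.

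HBEGF, whose product binds EGFR and ERBB4, was the most abundant ligand transcript in every library. It stood at 30.1 RPKM in S473D, 49.0 in S473A and 48.7 in wt. S473D alone was low, and the other libraries lay within counting error of each other, with an S473A to wt ratio of 1.01 (interval 0.957 to 1.06). The S473D level was 1.62-fold below wt (interval 1.52 to 1.72) and 1.63-fold below S473A (interval 1.54 to 1.73). The log2 difference between S473D and wt was -0.68, and HBEGF held place 141 from the lowest among the 11571 genes. Against S473A, the difference was -0.68 again and the place 133. These comparisons share the S473D library and are not independent of each other.

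ERRFI1 stood at 42.9 RPKM in S473D, 60.4 in S473A and 68.1 in wt. All 3 libraries were apart by more than counting error, with S473D lowest and wt highest. The S473D level was 1.59-fold below wt (interval 1.52 to 1.66), a log2 difference of -0.65 and place 178 from the lowest. It was 1.41-fold below S473A (interval 1.35 to 1.47), a log2 difference of -0.48 that is under 1.5-fold. S473A was itself 1.13-fold below wt (interval 1.09 to 1.17), and that log2 difference of -0.17 lay at percentile 3.79 of all genes. ERRFI1 was the most abundant of the 10 transcripts in wt and came after EGFR in S473D and S473A. The ratio of ERRFI1 to EGFR was 0.867 in S473D (interval 0.834 to 0.902), 0.966 in S473A (interval 0.937 to 0.996) and 1.14 in wt (interval 1.11 to 1.18).

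Among the 7 genes, HBEGF and ERRFI1 were the pair at least 1.5-fold below wt in S473D before centring, and the lowest 2 after it, and their promoter windows are shown for that reason. The sequences are from RefSeq in the GRCh38.p14 build and run from 250 bases before to 50 bases after the gene's start, read 5′ to 3′ on the gene's own strand. HBEGF lies at chr5:140346554-140346853 on the minus strand and ERRFI1 at chr1:8026260-8026559 on the minus strand. Capitals mark the GC box GGGCGG on either strand.
HBEGF: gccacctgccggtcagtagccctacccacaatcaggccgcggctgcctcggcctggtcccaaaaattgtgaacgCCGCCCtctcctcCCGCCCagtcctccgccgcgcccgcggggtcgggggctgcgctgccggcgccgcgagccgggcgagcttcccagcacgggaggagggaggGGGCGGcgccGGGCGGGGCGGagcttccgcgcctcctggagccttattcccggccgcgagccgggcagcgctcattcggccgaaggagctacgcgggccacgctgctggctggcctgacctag
ERRFI1: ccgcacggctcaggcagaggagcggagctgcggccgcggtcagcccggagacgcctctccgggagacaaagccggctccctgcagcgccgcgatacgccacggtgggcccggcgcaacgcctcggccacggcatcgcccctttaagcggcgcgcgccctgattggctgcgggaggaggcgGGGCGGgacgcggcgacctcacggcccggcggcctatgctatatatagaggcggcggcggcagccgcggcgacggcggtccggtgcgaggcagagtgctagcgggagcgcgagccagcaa
The HBEGF window held 5 GC boxes, of which 2 neighbouring ones share a base, and the ERRFI1 window held 1. Of the 35116 promoter windows of that table, 45.0% held at least 1. GC boxes were not particular to these genes within the family. TGFA and EGFR have 2 windows each, which held 4 and 0 for TGFA and 3 and 0 for EGFR. The ADAM17 window held 3, that of AREG 1, and those of ERBB2 and EREG 0. No count was made for NRG1 or ERBB3. The windows of HBEGF and ERRFI1 are both rich in G and C, at 75.0% and 74.7%. A further 7 motifs were searched on both strands. They were the AP-1 motif TGANTCA (in 7.71% of all windows), the cyclic AMP response element TGACGTCA (1.85%), the ETS core CCGGAA (17.2%), the TEAD core GGAATG (14.0%) and the TATA box TATAAA (11.5%). The others were the EGR1 motif GCGNGGGCG (9.43%) and the SRF CArG box (1.29%). Neither the HBEGF nor the ERRFI1 window held the exact letters of any of these 7. Variants of the motifs were not searched, and the ERRFI1 window does hold the run TATATATA, which differs from TATAAA. The search therefore does not settle whether that window has a TATA box.

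NRG1, which encodes neuregulin 1 and acts through ERBB3 and ERBB4, went the other way from HBEGF. It stood at 15.3 RPKM in S473D, 13.8 in S473A and 13.0 in wt, highest in S473D. The ratio of S473D to wt was 1.18 (interval 1.11 to 1.25), a log2 difference of 0.22 that is under 1.5-fold. The ratio of S473A to wt was 1.06, with a counting interval whose lower end is at 1. NRG1 has many transcript forms, and the table gives a single value for all of them.

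TGFA, the gene for transforming growth factor alpha, stood at 2.17 RPKM in S473D, 2.31 in S473A and 2.93 in wt. It was lower in both libraries with a substituted KAP1, by 1.35-fold in S473D (interval 1.14 to 1.62) and by 1.27-fold in S473A (interval 1.08 to 1.5). Those values share the wt library, so a high wt value cannot be told apart from low values in the others. The S473D to S473A ratio was 0.939 (interval 0.784 to 1.12). In S473A the log2 difference of -0.25 was the largest of the 7 genes in size and lay at percentile 1.44 of all genes. It rests on an estimated 292 reads in S473A and 325 in wt.

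AREG and EREG, the genes for amphiregulin and epiregulin, neighbour each other on chromosome 4, between EPGN and BTC. AREG stood at 1.08 RPKM in S473D, 0.603 in S473A and 0.783 in wt, and EREG at 0.262, 0.111 and 0.177 RPKM in that order of libraries. Both were highest in S473D and lowest in S473A. The ratio of S473D to wt was 1.38 for AREG (interval 0.790 to 2.42) and 1.48 for EREG (interval 0.817 to 2.74), so neither was distinguishable from 1 at this depth. The ratio of S473D to S473A was 1.79 for AREG (interval 1.01 to 3.23) and 2.37 for EREG (interval 1.23 to 4.76). These rest on few estimated reads, 32 in S473D and 22 in S473A for AREG and 29 and 15 for EREG. They also depend on the constant of 0.1 that the values were taken to hold, since without subtracting it they would be 1.67 for AREG and 1.72 for EREG. AREG has a near-identical copy, AREGB, in the hg19 build, so its values are uncertain. Of the other ligand genes EGF, BTC, EPGN, NRG2 and NRG4 had a row and were all below 1 RPKM in every library.

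**Figure D2:**
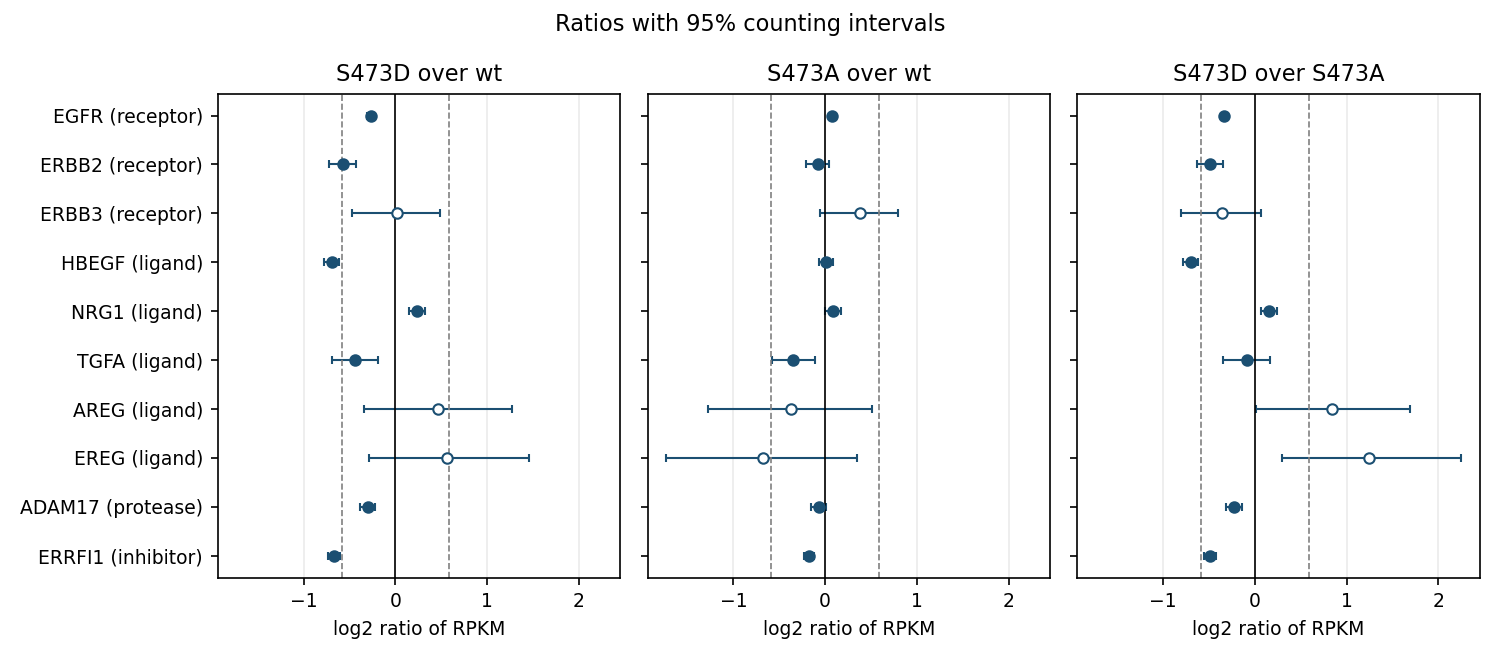
Log2 ratio of RPKM for each of the 10 genes in the 3 comparisons, with exact 95% intervals for counting error and dashed lines at 1.5-fold. No 1 was added before these ratios, so low genes lie farther out than on the log2(RPKM + 1) scale. Filled points are the 7 genes that averaged 1 RPKM or more. HBEGF lies left of the dashed line against wt and S473A alike, at RPKM ratios of 0.618 and 0.615, and the intervals of AREG and EREG are the widest.

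The make-up of the ligand transcripts differed between S473D and the other libraries. HBEGF made up 60.0% of the summed RPKM of 10 ligand genes in S473D, 72.9% in S473A and 72.7% in wt. NRG1 made up 30.6% in S473D, 20.6% in S473A and 19.5% in wt. The ratio of NRG1 to HBEGF was 0.510 in S473D (interval 0.478 to 0.544), 0.282 in S473A (interval 0.268 to 0.298) and 0.268 in wt (interval 0.253 to 0.283). The 10 ligand genes summed to 50.2 RPKM in S473D, 67.2 in S473A and 67.0 in wt. Without HBEGF, the other 9 summed to 20.1 RPKM in S473D, 18.2 in S473A and 18.3 in wt.

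**Figure D3:**
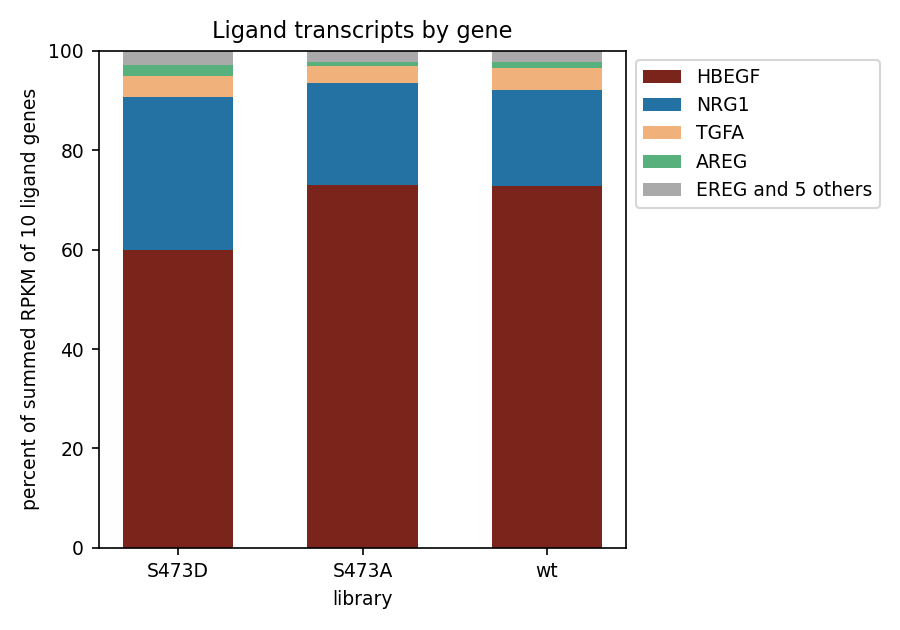
Share of each gene in the summed RPKM of 10 ligand genes, in percent, for the S473D, S473A and wt libraries. HBEGF takes 60.0% in S473D against 72.7% in wt, and NRG1 takes 30.6% against 19.5%.

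ADAM17, which encodes the main protease that releases HBEGF, TGFA, AREG and EREG from the membrane, stood at 18.2 RPKM in S473D, 21.3 in S473A and 22.4 in wt. It was 1.23-fold lower in S473D than in wt (interval 1.16 to 1.31), and its ratio of 0.952 between S473A and wt had an interval from 0.902 to 1.01. Of 9 further genes for ligand release, 8 averaged 1 RPKM or more. None of the 8 was 1.5-fold apart from wt in S473D, against 10.1% of all genes. Their median difference was -0.19, against -0.10 for all genes. With the length and GC trends removed their median was -0.12, and that of all genes is kept at -0.10. RHBDF2, the gene for an iRhom protein that escorts ADAM17 to the cell surface, was lowest at -0.45 (6.65 RPKM in S473D against 9.48 in wt), followed by ADAM12 at -0.39. ADAM15 was highest at 0.08, and ADAM10, another protease gene of the list, stood at -0.09 (20.0 RPKM in S473D against 21.3 in wt). With the trends removed RHBDF2 stood at -0.24, ADAM12 at -0.19, ADAM15 at 0.25 and ADAM10 at -0.07.

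The whole S473D library was shifted, and the shift ran with transcript length. The median difference of all genes between S473D and wt was -0.10. By transcript length, the median was 0.46 for 551 genes under 1000 bases, -0.04 for 2413 genes from 2000 to 3000 bases and -0.26 for 1831 genes of 6000 bases or more. Between S473A and wt it was 0.00 in each of those classes. The family's transcripts that passed the level of 1 RPKM are between 2386 bases (HBEGF) and 9821 bases (EGFR) long in GENCODE. EGFR, at -0.26, stood at the median of its length class. The median of all genes was -0.10 with the length and GC trends removed too, because that step is set to keep it. The transcript of ERBB2 has 59.3% G and C. HBEGF and ERRFI1 kept their distance, at -0.71 and -0.76 with the trends removed. Of the genes from 2000 to 3000 bases, the class of HBEGF, 2.98% were at least 1.5-fold lower in S473D, and of those from 3000 to 4000 bases, the class of ERRFI1, 3.07% were. NRG1 stood at 0.30 with the trends removed, TGFA at -0.26 and ADAM17 at -0.32.

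**Figure D4:**
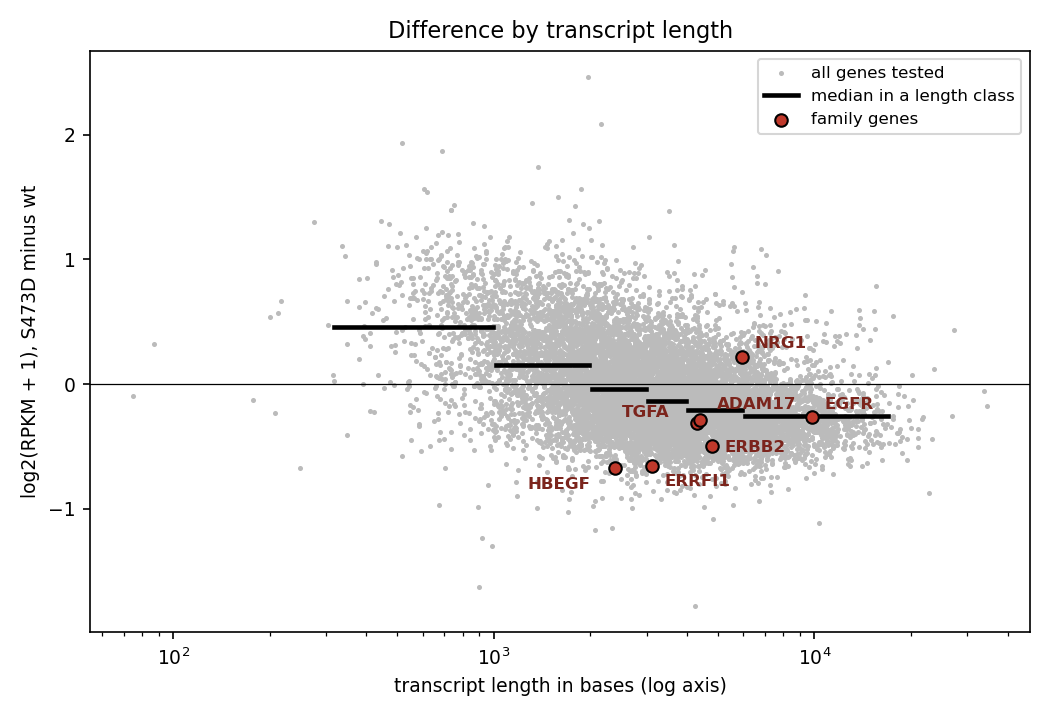
Difference between S473D and wt on the log2(RPKM + 1) scale against transcript length in bases (log axis) for genes with a matched GENCODE transcript. Black bars are medians in 6 length classes and red points are the 7 family genes. The medians step down from 0.46 to -0.26 with length, HBEGF and ERRFI1 lie below the bars of their classes, and NRG1 lies above its bar.

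The median difference of the 7 genes between S473D and wt was -0.31, against -0.10 for all genes, with 6 below 0 and 1 above. These genes were chosen with earlier results of these data known, so their median beside that of all genes is description only. Centred on the median of all genes, HBEGF stood at -0.576 and ERRFI1 at -0.555, both just under 1.5-fold, so the count of 2 became 0. Among all genes, 10.1% reached 1.5-fold in either direction, with 6.83% higher in S473D and 3.23% lower. That split was 9.55% higher and 1.11% lower after centring, 9.66% and 1.20% with a trimmed mean of log ratios as the scaling, and 1.70% and 3.31% with the length and GC trends removed. At a size of 2-fold, 0 of the 7 genes were apart and 1.09% of all genes were.

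Between S473A and wt the 7 genes had a median difference of -0.07, against 0.00 for all genes, with 3 above 0 and 4 below. None was 1.5-fold apart, and 0.242% of all genes were. Between S473D and S473A the median was -0.33, against -0.10 for all genes, and HBEGF was the single gene 1.5-fold apart. Among all genes, 9.86% reached that size, with 6.86% higher in S473D and 3% lower. After centring, HBEGF stood at -0.583, just under the size used, and the count of 1 became 0, with 9.77% of all genes higher and 1.12% lower, and with the trimmed mean of log ratios 9.96% and 1.18%. With the length and GC trends removed the count was 2, since ERRFI1 then stood at -0.60, and 1.60% of all genes were higher and 3.39% lower.

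Genes that carry the receptors' signal were mostly below wt in S473D, as were 7026 of all 11571 genes. Among all genes, 10.1% were at least 1.5-fold apart and 3.23% were that much lower. Of 17 genes for adaptors and the RAS-ERK chain that averaged 1 RPKM or more, 15 were below 0 and 0 were 1.5-fold apart (median -0.25). The kinase gene MAPK3, which encodes ERK1, stood at -0.48 (13.2 RPKM in S473D against 18.9 in wt) and HRAS at -0.46 (42.5 against 58.8), while MAP2K1 stood at 0.04 and NRAS at 0.00. All 12 genes of the PI3K-AKT arm were below 0, and 1 was 1.5-fold lower (median -0.38). That gene was PIK3R2, which encodes a regulatory subunit of PI3K, at -0.60 (14.9 RPKM in S473D against 23.0 in wt), followed by the kinase gene PDPK1 at -0.51. INPP4B, a phosphatase gene whose product restrains this arm, was nearest to wt at -0.03. With the length and GC trends removed, the medians of these lists were -0.25 and -0.24, against -0.10 for all genes, and PIK3R2 stood at -0.33, no longer 1.5-fold apart. HRAS stood at -0.67 there, which made it 1 gene of the RAS-ERK list past 1.5-fold.

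Genes for taking up and degrading receptors went both ways. Of 16 that averaged 1 RPKM or more, 12 were below wt in S473D and 4 above it, with a median of -0.15. Among all 11571 genes, 7026 were below wt and 3.23% were at least 1.5-fold lower. The endocytic adaptor gene EPN1 was lowest at -0.61 (30.6 RPKM in S473D against 47.3 in wt) and the only gene of the list 1.5-fold apart, and it stood at -0.27 with the trends removed. AP2M1, a subunit of the AP-2 clathrin adaptor, stood at -0.53, the sorting gene STAM2 at 0.25 and the ubiquitin ligase gene NEDD4 at 0.19. AP2M1 was the lowest of the list with the trends removed, at -0.56, while STAM2 and NEDD4 both stood at 0.16. The list's median was then -0.14, against -0.10 for all genes. Of 9 genes listed as possible restraints on the receptors besides ERRFI1, 8 were below wt (median -0.24). PTPRJ, a receptor-type phosphatase gene, was at -0.68 (3.37 RPKM in S473D against 6.01 in wt) and was the only gene of that list 1.5-fold apart. LRIG1, whose product promotes degradation of these receptors, was at -0.53 (7.27 against 11.0 RPKM), LRIG3 at 0.06 and SOCS5 at -0.02. With the trends removed PTPRJ stood at -0.46, no longer 1.5-fold apart, LRIG1 at -0.25 and the list's median at -0.17.

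Other receptor tyrosine kinase genes gave a measure of how the EGF receptors compare with their wider class. Of 12 that averaged 1 RPKM or more, 11 were below wt in S473D and 0 were 1.5-fold apart. Their median was -0.15, and it was 0.02 with the trends removed. The median of all genes was -0.10 in both cases. Among all 11571 genes, 7026 were below wt and 10.1% were 1.5-fold apart. FGFR1 stood at -0.52 (13.7 RPKM in S473D against 20.2 in wt), AXL at -0.48 (87.9 against 123), TYRO3 at 0.00 and RYK at 0.21. EGFR at -0.26 and ERBB2 at -0.50 lay within that range. Between S473A and wt, no gene of these 6 lists was 1.5-fold apart, and 0.242% of all genes were. The list medians lay between -0.06 and 0.02, with all genes at 0.00.

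**Figure D5:**
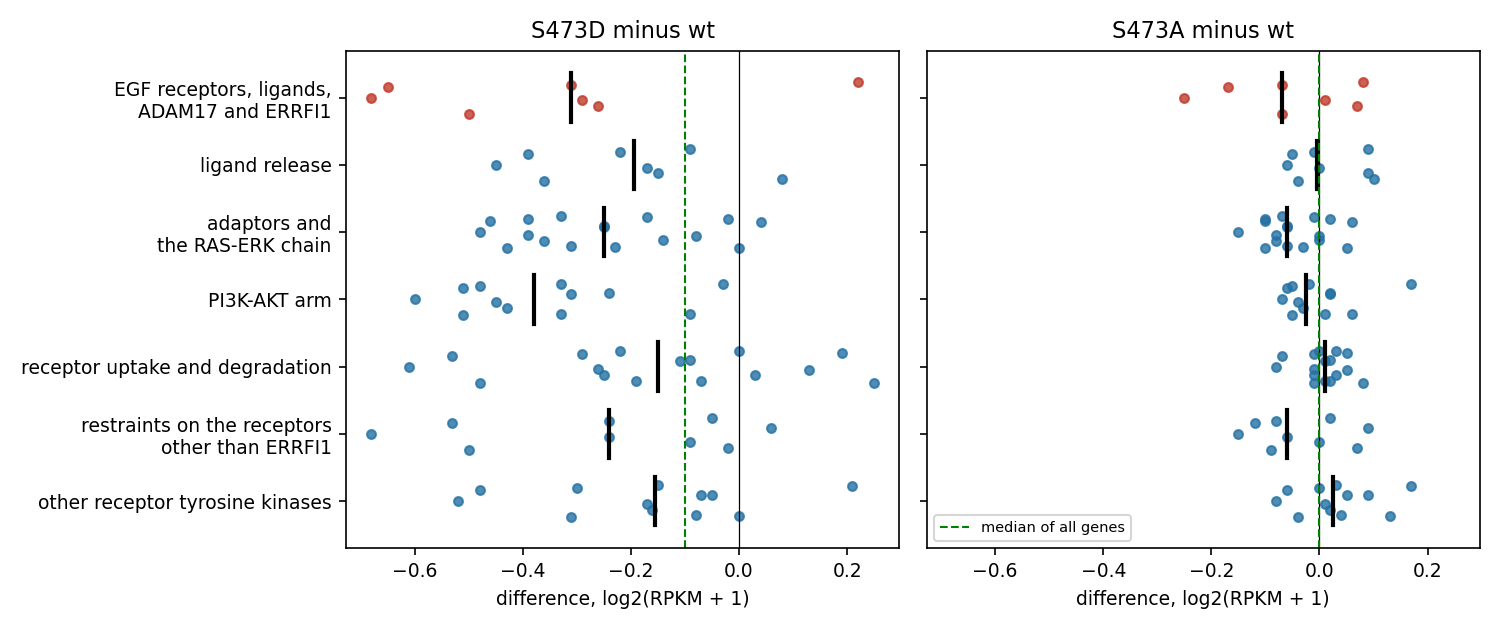
Differences from wt on the log2(RPKM + 1) scale for the 7 family genes and 6 lists of related genes, 1 point per gene averaging 1 RPKM or more, for S473D (left) and S473A (right). Black bars are list medians and the dashed line is the median of all genes. The list medians for S473D lie between -0.38 and -0.15, and those for S473A between -0.07 and 0.02.

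The 5 genes whose pair of differences from wt lay nearest to that of HBEGF, among 8122 that averaged 5 RPKM or more, were NCAPD2, CASC3, FOXM1, KAT7 and SMAD3. Their distances were 0.0130 to 0.0208 in log2 units over the 3 libraries. The condensin subunit gene NCAPD2 stood at 35.2 RPKM in S473D, 56.5 in S473A and 56.7 in wt. SMAD3, a transducer of TGF-beta signals, stood at 30.6 RPKM in S473D, 50.4 in S473A and 50.2 in wt. With 3 libraries a likeness of this kind rests on 2 differences, and many genes come close by that measure.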

How the data were processed

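Per the labels' protocols, total RNA was isolated with TRIzol and Illumina libraries were made, 1 for each of 3 forms of KAP1. Titles gave the groups. Reads were handled with Bowtie and Partek against hg19, per the submitters' processing notes. The sources used here name no versions, gene models, counting rule or filters. The authors deposited log2 values of RPKM, per the file name, with a lowest value of -3.32, the log2 of 0.1. The values were taken to be RPKM with 0.1 added, which is inferred from that lowest value and not stated, and RPKM was recovered by undoing the log and subtracting 0.1. RPKM is relative to all counted reads, and abundant transcripts in a library lower the values of the rest.

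Of 19076 lines, 27 with date-like or repeated symbols were left out. Genes averaging 1 RPKM or more were kept, and 177 short RNAs were left out. The depth was estimated from steps between values of 3014 low genes and GENCODE release 29 transcript lengths (the longest with a RefSeq record, otherwise the longest), which may differ from the authors' lengths. By that estimate 47.3% to 49.0% of low values were whole numbers of reads to within 2% (28.8% to 41.5% with no constant subtracted), and no count model was fitted. The depth was chosen to bring these same values near whole numbers, so that share is no separate check of it. Relative depths between libraries were estimated with the constant subtracted and used for both shares. The shares are therefore no separate check of the constant either, and the share that random values would give was not worked out. Intervals are conditional binomial (scipy 1.17.1). Smooth trends on length and GC content were removed with lowess (statsmodels 0.14.6, fraction 0.2, 2 rounds) for 10781 genes (93.2%), keeping the overall median. The difference and trend-removal steps were tested on simulated counts with a length trend put in. The depth estimate, the subtracted constant and the counting intervals were not tested that way. The genes and lists were chosen with earlier results of these data known. The rule names the 10 genes and TRIM28, the 2 highest and 2 lowest genes of each list in S473D against wt, and the 5 genes nearest in pattern to the gene with the greatest difference. Some genes that the rule names are left out of the text.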

Additional observations from a re-analysis of the deposited data

How the results depend on the processing

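With 1 library per group no result has a test, and depth limits the low genes AREG, EREG and ERBB3. No paired analysis was possible because each group has 1 library. Between S473D and wt the count of genes at least 1.5-fold apart, 2, became 0 with differences centred on their median, 0 with the trimmed mean of log ratios and 0 at 2-fold, and stayed at 2 under the other alternatives. The median of the genes that passed, -0.31, was -0.42 with a pseudocount of 0.1 and -0.21 after centring. Between S473D and S473A the count of 1 became 0 after centring, 0 with the trimmed mean and 0 at 2-fold, and 2 with the length and GC trends removed. The median there, -0.33, was -0.18 with no filter on low values, -0.23 after centring, -0.22 with the trimmed mean and -0.13 with the trends removed. Between S473A and wt the count was 0 under every alternative tried. Over all these alternatives HBEGF ranged from -0.71 to -0.57 between S473D and wt, ERRFI1 from -0.76 to -0.55, EGFR from -0.27 to -0.02, ERBB2 from -0.56 to -0.22 and NRG1 from 0.22 to 0.33. TGFA ranged from -0.09 to 0.04 between S473D and S473A and so had no fixed direction there. Over all genes, the 1164 of 11571 at least 1.5-fold apart between S473D and wt (10.1%) compare with 540 of the 10781 with a matched transcript (5.01%) when the trends are removed, and the 1141 between S473D and S473A (9.86%) with 538 (4.99%). The 28 between S473A and wt became 66 with a pseudocount of 0.1 and 9 of 8182 among genes that averaged 5 RPKM or more. Reading the deposited values without the constant of 0.1, an alternative chosen after seeing the data, gave S473D to S473A ratios of 1.67 for AREG and 1.72 for EREG in place of 1.79 and 2.37.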
